A study of Mus musculus with 32 samples.

Results

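A set of 38 DNA repair genes, grouped by repair pathway, was examined in the distal colon of 32 mice, with a single Affymetrix expression array for each mouse. Members were found by gene symbol in the platform annotation, older names included, and each was represented by the probe set with the highest mean over the 32 arrays. In all, 37 of the 38 members were measured, among 18193 genes, and Xrcc2 was not analysed here. Mice were Myd88 knockout (KO, labelled Myd88-/-) or wild type (WT), Myd88 being an adaptor through which Toll-like receptors and receptors of the interleukin-1 family signal. Both genotypes were C57 BL6NCr, the KO line after repeated backcrossing. Treated KO and treated WT mice (10 each), aged 6 to 8 weeks, were injected intraperitoneally with azoxymethane (AOM) at 10 mg/kg. They drank 2% dextran sodium sulfate (DSS) for 3 days from 1 week later and were then killed. Untreated KO and untreated WT mice (6 each) have no age or housing in the labels, and no label says which part of Myd88 was removed. The labels call the mice biological repeats and do not pair them, and no array date, batch or sex was given.

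AOM is activated in the body to a methylating agent that leaves methylated bases in DNA, while DSS strips and inflames the colon lining. Every treated mouse received both agents, so their effects cannot be told apart here. Each repair pathway handles a different lesion. Mgmt removes the methyl group from guanine directly, base excision repair cuts out small altered bases, nucleotide excision repair removes bulky ones, and mismatch repair corrects mispaired bases. Breaks in both strands are rejoined by homologous recombination or end joining, and the kinases Atm, Atr, Chek1 and Chek2 pass the damage signal to the cell cycle. Several of these enzymes are controlled mainly after the RNA stage, by phosphorylation or recruitment to the lesion, which arrays do not measure.

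The upstream sequences of 3 members whose RNA fell are shown because their letters differ in which cell cycle and housekeeping promoter motifs they hold, and because the motifs are referred to again beside the cell cycle genes. RefSeq gave a promoter for 29 of the 38 members (build GRCm38.p6), and the 250 bases before the start were searched on both strands. The sequences run 5′ to 3′ along each gene's own strand and end at the base before its transcription start, with motif letters in capitals. Apex1, at chr14:50924699-50924948 on the plus strand, has a CCAAT box 45 to 41 bases before its start. Atm, at chr9:53536672-53536921 on the minus strand, has a CCAAT box on the opposite strand (ATTGG, 165 to 161 bases before) and the NRF1 motif GCATGCGC, read as GCGCATGC, 51 to 44 bases before. Xrcc6, at chr15:82016119-82016368 on the plus strand, has an E2F motif, read as GCGGGAAA, 46 to 39 bases before.
Apex1: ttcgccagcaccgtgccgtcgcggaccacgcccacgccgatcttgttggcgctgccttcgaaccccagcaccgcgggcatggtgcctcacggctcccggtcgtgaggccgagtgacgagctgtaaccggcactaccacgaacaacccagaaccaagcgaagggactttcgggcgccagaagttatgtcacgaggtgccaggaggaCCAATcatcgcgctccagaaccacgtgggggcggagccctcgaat
Atm: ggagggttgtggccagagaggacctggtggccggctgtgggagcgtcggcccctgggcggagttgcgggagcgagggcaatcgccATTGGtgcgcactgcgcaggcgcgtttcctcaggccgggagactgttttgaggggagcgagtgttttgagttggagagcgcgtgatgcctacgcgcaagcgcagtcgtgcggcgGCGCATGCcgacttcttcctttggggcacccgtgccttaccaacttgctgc
Xrcc6: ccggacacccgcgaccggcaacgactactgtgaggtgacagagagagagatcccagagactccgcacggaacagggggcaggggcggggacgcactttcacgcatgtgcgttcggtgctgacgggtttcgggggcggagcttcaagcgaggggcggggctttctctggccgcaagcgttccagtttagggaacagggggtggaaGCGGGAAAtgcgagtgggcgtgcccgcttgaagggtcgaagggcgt

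Myd88 itself was first compared as a check of the labels. It lay between 7.50 and 8.31 (median 8.08) on the log2 scale in treated KO mice and between 8.26 and 8.61 (median 8.49) in treated WT mice. It lay between 7.53 and 7.81 in untreated KO mice and between 8.23 and 8.51 in untreated WT mice. The treated KO arrays therefore reached just past the lowest treated WT array, while the untreated groups did not overlap. KO minus WT was -0.46 ± 0.09 (SE, adjusted p = 0.00104) with treatment and -0.73 ± 0.11 (adjusted p = 0.000925) without.

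In KO mice 7 of the 37 repair genes were lower with treatment and none was higher. They were Apex1 and Parp1 of base excision repair, Ddb2 of nucleotide excision repair, Rad50 and Xrcc6 of double-strand break repair, and the kinases Atm and Chek2, with falls between 1.28-fold (Rad50) and 1.94-fold (Apex1). The 7 are 18.9% of the members. Over all genes tested 18.7% passed in either direction and 10% passed as lower. In this setting the members' share in either direction was thus close to the background, while all 7 were lower. The count depends on the setting: it was 12 (32.4% of members, 22.9% of all genes) without treated KO repeat 9, and 13 (35.1% of members, 18.6% of all genes) with the values as deposited. The background moved as well: the count of 7 stood against 10.5% of all genes with arrays of the compared groups only. At a threshold of 0.01 it stood against 10%, so no reading against the background holds in every setting. Over the 37 members 29 differences were below 0 and 8 above it, with a median of -0.20 against 0.00 over all genes. The tests came from moderated linear models (limma), a gene passed where its p, adjusted over all 18193 genes by Benjamini and Hochberg's method, was under 0.05, and every difference is on the log2 scale with its standard error.

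In WT mice no repair gene passed for the same comparison of treated with untreated mice (limma, 0 of 37, against 1.82% of all genes), and 6 were under 0.05 before adjustment. Most differences lay below 0 here too, 31 of 37, and the median was -0.18. The falls that passed in KO mice therefore stand beside smaller differences of mostly the same sign in WT mice. The difference between the genotypes' treatment responses was tested directly, and no member passed (limma, 0 of 37, 0.055% of all genes, 4 members under 0.05 before adjustment). A different response in KO and WT mice was thus not shown for any member.

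**Figure D1:**
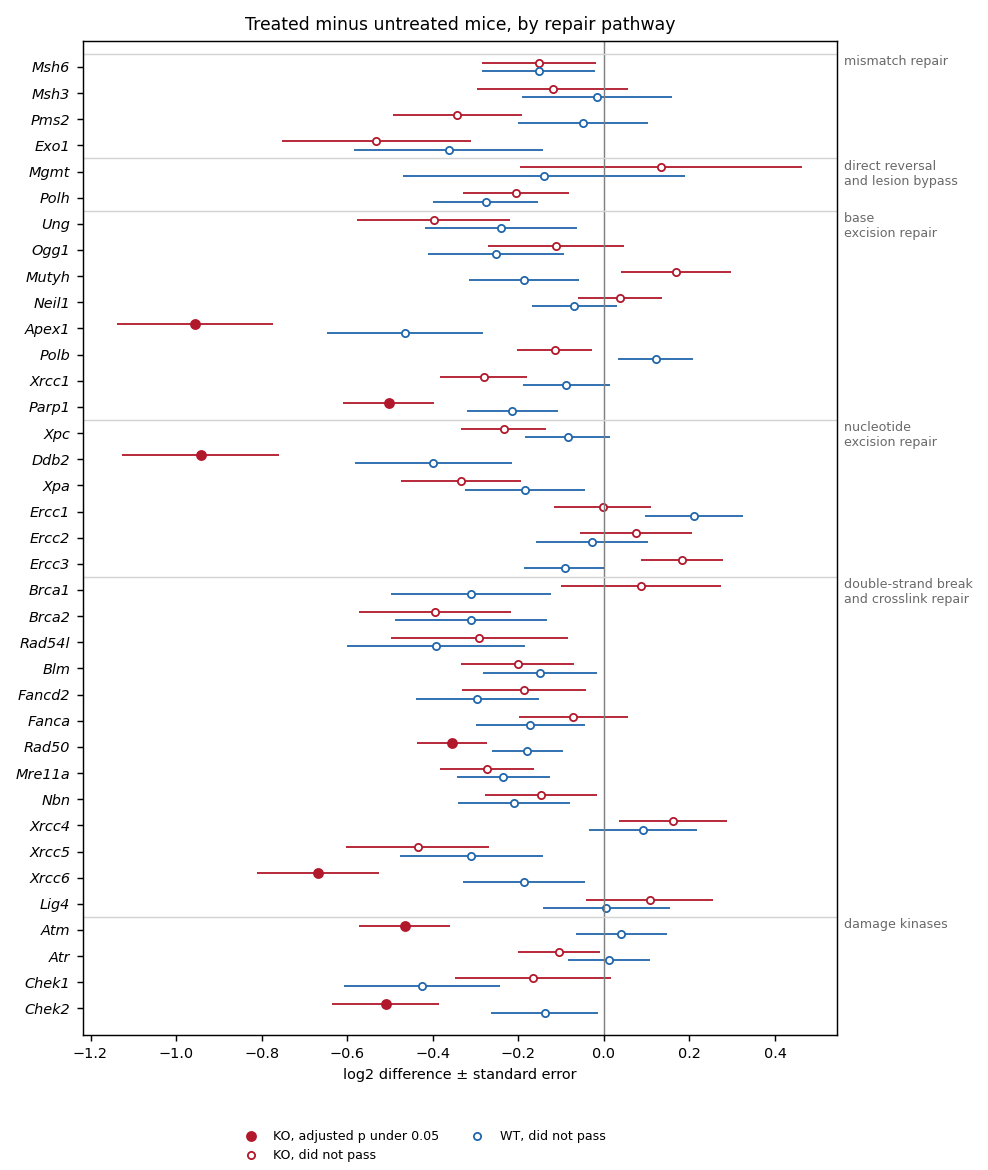
Log2 differences between treated and untreated mice (x axis, ± standard error) for the 37 measured repair genes, ordered by pathway, in KO mice (red) and WT mice (blue). Filled points passed at an adjusted p under 0.05, which 7 KO values did and no WT value did.

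Base excision repair had 2 of 8 members that fell in KO mice, Apex1 and Parp1. That is 25%, against 18.7% of all genes in either direction and 10% as lower. Apex1, the endonuclease that cuts the backbone where a damaged base has been removed, lay between 7.16 and 8.84 (median 7.85) in treated KO, between 7.78 and 8.89 (median 8.11) in treated WT, between 8.64 and 9.08 (median 8.72) in untreated KO and between 8.58 and 8.79 (median 8.72) in untreated WT mice. All but 1 of the 10 treated KO mice were below every untreated KO mouse. Treated minus untreated was -0.96 ± 0.18 in KO mice (adjusted p = 0.000534) and -0.46 ± 0.18 in WT mice (adjusted p = 0.207). The other probe sets of Apex1 gave -0.74 (adjusted p = 0.00333) and -0.61 (adjusted p = 0.0997) in KO mice, with p for such other probe sets adjusted over all probe sets.

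Parp1, which binds strand breaks and marks them with poly(ADP-ribose), lay between 7.99 and 8.75 (median 8.33) in treated KO, between 8.28 and 8.84 (median 8.50) in treated WT, between 8.68 and 8.92 (median 8.84) in untreated KO and between 8.60 and 8.95 (median 8.74) in untreated WT mice. Here 8 of 10 treated KO mice were below every untreated KO mouse. The difference was -0.50 ± 0.11 in KO mice (adjusted p = 0.0013) and -0.21 ± 0.11 in WT mice (adjusted p = 0.342). Of its 3 other probe sets, 1 passed in KO mice (-0.53, adjusted p = 0.00186) and the others gave -0.21 (adjusted p = 0.316) and -0.14 (adjusted p = 0.781).

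Xrcc1, the scaffold that gathers the enzymes of single-strand break repair, lay between 6.11 and 6.75 (median 6.55) in treated KO, between 6.40 and 6.80 (median 6.62) in treated WT, between 6.36 and 7.04 (median 6.79) in untreated KO and between 6.30 and 6.86 (median 6.72) in untreated WT mice. All 4 groups overlapped, and the KO difference of -0.28 ± 0.10 missed the threshold narrowly (adjusted p = 0.0527). Polb, the polymerase that fills the gap, lay between 7.37 and 8.04 (median 7.82) in treated KO, between 7.79 and 8.51 (median 8.00) in treated WT, between 7.81 and 8.01 (median 7.91) in untreated KO and between 7.70 and 8.03 (median 7.93) in untreated WT mice. Its difference was -0.12 ± 0.09 in KO mice, but its probe sets disagreed: others gave -0.44 (adjusted p = 0.00864), -0.36 (adjusted p = 0.0317) and 0.00. The glycosylases, which cut out the altered base, did not pass, with KO differences of -0.40 for Ung, -0.11 for Ogg1, 0.04 for Neil1 and 0.17 for Mutyh.

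In nucleotide excision repair 1 of 6 members passed in KO mice (16.7%, against 18.7% of all genes in either direction and 10% as lower). Ddb2, the damaged-DNA binding subunit that finds lesions in chromatin, lay between 5.42 and 6.62 (median 6.03) in treated KO, between 6.15 and 7.14 (median 6.55) in treated WT, between 6.33 and 7.81 (median 6.88) in untreated KO and between 6.84 and 7.10 (median 6.99) in untreated WT mice. All 10 treated KO mice were below the untreated KO median and 7 were below every untreated KO mouse. The difference was -0.94 ± 0.18 in KO mice (adjusted p = 0.000643) and -0.40 ± 0.18 in WT mice (adjusted p = 0.298). A second probe set gave -1.01 (adjusted p = 0.000126) in KO mice. None of the other members of the pathway passed: the lesion sensor Xpc had -0.23 (adjusted p = 0.0993) and the verifying protein Xpa -0.33 (adjusted p = 0.0962) in KO mice. The helicase subunits Ercc2 and Ercc3 had 0.08 and 0.18, and the nuclease subunit Ercc1 had 0.00.

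Double-strand break and crosslink repair held 13 members, of which 2 fell in KO mice (15.4%, against 18.7% of all genes in either direction and 10% as lower). Rad50, the coiled-coil subunit of the complex that holds broken ends, lay between 6.33 and 6.87 (median 6.64) in treated KO, between 6.51 and 6.94 (median 6.79) in treated WT, between 6.73 and 7.23 (median 7.00) in untreated KO and between 6.80 and 7.15 (median 6.90) in untreated WT mice. The KO groups overlapped, with 6 of 10 treated mice below every untreated mouse. Its difference was -0.35 ± 0.08 in KO mice (adjusted p = 0.00289) and -0.18 ± 0.08 in WT mice (adjusted p = 0.298). The partners of Rad50 gave -0.27 (Mre11a, adjusted p = 0.0807) and -0.15 (Nbn, adjusted p = 0.488) in KO mice.

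Xrcc6, a subunit of the Ku heterodimer that caps broken ends for end joining, lay between 5.98 and 7.31 (median 6.59) in treated KO, between 6.71 and 7.39 (median 6.90) in treated WT, between 6.92 and 7.47 (median 7.27) in untreated KO and between 7.08 and 7.20 (median 7.11) in untreated WT mice. The treated KO mice spread widest, and 7 of 10 were below every untreated KO mouse. The difference was -0.67 ± 0.14 in KO mice (adjusted p = 0.00146) and -0.19 ± 0.14 in WT mice (adjusted p = 0.597). A second, dim probe set of Xrcc6, at the floor of the table on 22 of 32 arrays, gave -0.05 (adjusted p = 0.874).

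The other Ku subunit, Xrcc5, had -0.44 in KO mice (adjusted p = 0.068). The later end joining factors Xrcc4 and Lig4, which seal the break, had 0.16 and 0.11, so the end joining members did not lie on the same side of 0. Among the recombination and crosslink genes none passed, and the KO differences were -0.40 for Brca2, -0.29 for Rad54l, -0.20 for Blm, -0.19 for Fancd2 and -0.07 for Fanca. Brca1, which directs breaks towards recombination, lay between 4.56 and 5.69 (median 5.23) in treated KO, between 4.17 and 5.39 (median 5.07) in treated WT, between 4.70 and 5.65 (median 5.12) in untreated KO and between 4.50 and 5.59 (median 5.37) in untreated WT mice. The 4 groups of Brca1 overlapped throughout, with differences of 0.09 in KO and -0.31 in WT mice.

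Among the 4 damage kinases 2 fell in KO mice, Atm and Chek2 (50%, against 18.7% of all genes in either direction and 10% as lower). Atm, the kinase recruited to double-strand breaks, lay between 6.31 and 7.24 (median 6.76) in treated KO, between 7.04 and 7.54 (median 7.33) in treated WT, between 7.08 and 7.41 (median 7.21) in untreated KO and between 6.98 and 7.45 (median 7.32) in untreated WT mice. Most treated KO mice lay under the other 3 groups, with 9 of 10 below every untreated KO mouse and 8 of 10 below every treated WT mouse. Treated minus untreated was -0.47 ± 0.11 in KO mice (adjusted p = 0.00254) and 0.04 ± 0.11 in WT mice (adjusted p = 0.937). The difference between these responses was -0.51 ± 0.15, with p = 0.0022 before adjustment by limma and 0.176 after it, so it did not pass over all genes. Without treated KO repeat 9 it did pass (adjusted p = 0.0489).

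Chek2, the kinase that Atm activates, lay between 5.66 and 6.83 (median 6.33) in treated KO, between 6.26 and 6.84 (median 6.55) in treated WT, between 6.61 and 7.12 (median 6.77) in untreated KO and between 6.50 and 6.93 (median 6.70) in untreated WT mice. Of the treated KO mice 8 of 10 were below every untreated KO mouse, and the difference was -0.51 ± 0.13 (adjusted p = 0.00449), against -0.14 ± 0.13 in WT mice (adjusted p = 0.678). The kinases of the replication stress arm, Atr and Chek1, had KO differences of -0.10 and -0.17 and did not pass.

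Mismatch repair and direct reversal held no member that passed. Msh6, which recognises mispaired bases, lay between 6.61 and 7.55 (median 6.85) in treated KO, between 6.71 and 7.46 (median 7.15) in treated WT, between 6.83 and 7.34 (median 7.11) in untreated KO and between 7.07 and 7.36 (median 7.29) in untreated WT mice. Its difference was -0.15 in each genotype. The other mismatch repair members had KO differences of -0.53 for the exonuclease Exo1 (adjusted p = 0.0925), -0.34 for Pms2 (adjusted p = 0.117) and -0.12 for Msh3.

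Mgmt was at the floor of the table, which hides any smaller signal, on 20 of 32 arrays: 7 of 10 treated KO, 7 of 10 treated WT, 3 of 6 untreated KO and 3 of 6 untreated WT mice. Its highest arrays reached 5.22, 4.97, 4.70 and 4.45 in those groups, and at such levels a change in Mgmt was not measurable. Polh, the polymerase that copies past lesions, had -0.21 in KO and -0.28 in WT mice and passed in neither.

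**Figure D2:**
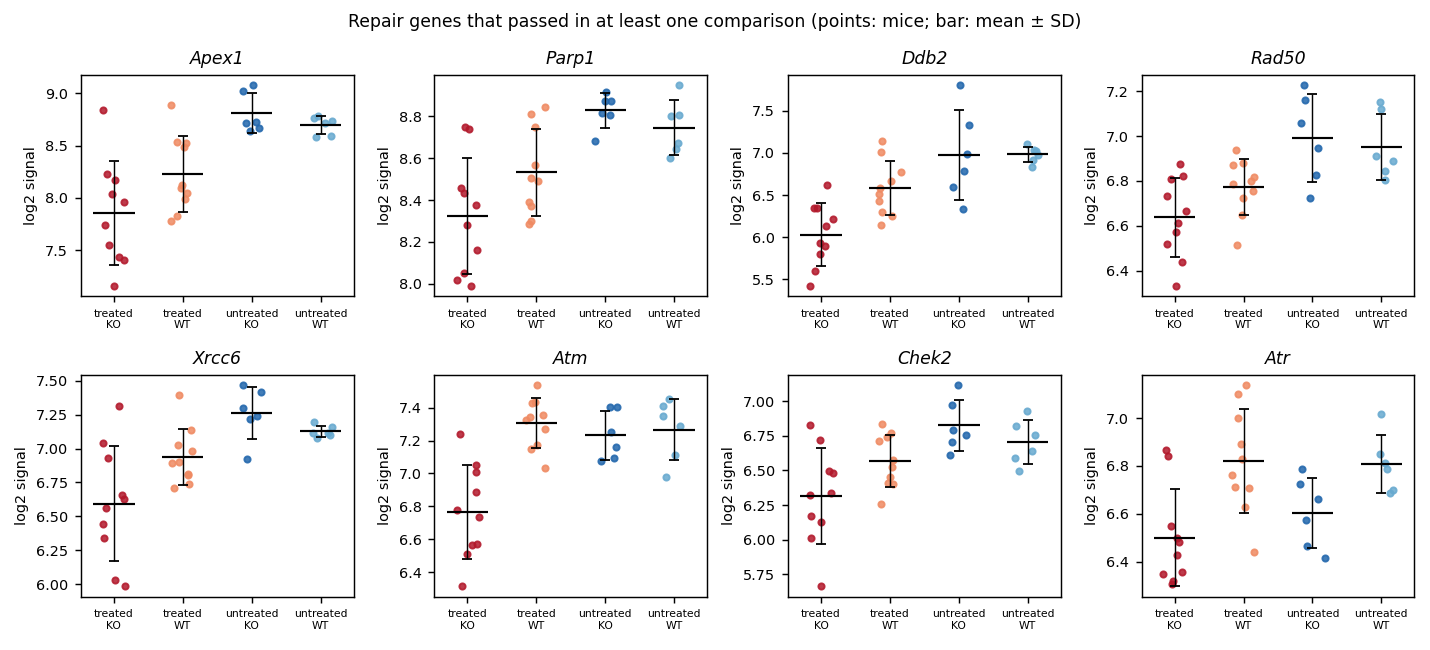
Log2 signal (y axis) of the 8 repair genes that passed in at least 1 comparison, with a point for each mouse and bars for the mean ± SD in treated KO (n = 10), treated WT (n = 10), untreated KO (n = 6) and untreated WT (n = 6) mice. The axes do not start at 0 and differ between panels. The 8 genes were picked because they passed, each as lower in treated KO mice. That the lowest mouse of the 4 groups was a treated KO mouse for all 8 largely follows from this choice.

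Set directly against treated WT mice, treated KO mice had lower Atm, Atr and Ddb2 and no repair gene that was higher. That is 3 of 37 members or 8.11%, against 12.8% of all genes in either direction and 6.57% as lower. Here too the count moved, to 9 (24.3% of members, 16.6% of all genes) without treated KO repeat 9 and 10 (27% of members, 13.1% of all genes) with the values as deposited, so no reading against the background holds in every setting. The median over the members was -0.10, with 23 below 0 and 14 above it. Treated KO arrays enter both this comparison and the treatment response of KO mice, so a gene that is low on them counts in both.

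Atm differed by -0.54 ± 0.09, 1.45-fold lower (adjusted p = 0.000388), and every treated KO mouse was below the treated WT median. Its second probe set gave -0.37 (adjusted p = 0.0243). Ddb2 differed by -0.55 ± 0.16, 1.47-fold lower (adjusted p = 0.0199), with 9 of 10 treated KO mice below the treated WT median, and its second probe set gave -0.41 (adjusted p = 0.0655).

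Atr, the kinase that answers stalled replication forks, lay between 6.31 and 6.86 (median 6.45) in treated KO, between 6.44 and 7.14 (median 6.79) in treated WT, between 6.42 and 6.79 (median 6.62) in untreated KO and between 6.69 and 7.02 (median 6.80) in untreated WT mice. Of the treated KO mice 5 were below every treated WT mouse, and the difference was -0.32 ± 0.08, 1.25-fold lower (adjusted p = 0.0101). Its other probe sets gave -0.13 (adjusted p = 0.513) and -0.40 (adjusted p = 0.124). Between the untreated genotypes Atr did not pass (adjusted p = 0.73). By pathway, the medians of this comparison were -0.29 over the 4 kinases, -0.16 over mismatch repair, -0.12 over base excision repair, -0.07 over nucleotide excision repair and 0.00 over double-strand break repair. The highest values among the members were 0.29 for Chek1 and 0.28 for Brca1, neither of which passed.

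Between untreated KO and untreated WT mice no repair gene passed (limma, 0 of 37, against 0.115% of all genes, with 2 members under 0.05 before adjustment). The differences ran from -0.33 (Polh) to 0.27 (Ercc1), with a median of 0.00. Atm, Atr, Chek1, Mre11a and Neil1 lie on chromosome 9 with Myd88 (GRCm38.p6), where a backcrossed line can keep DNA of the donor strain. Between the untreated genotypes Atr differed by -0.20 ± 0.11, Neil1 by -0.08 ± 0.11, Atm by -0.03 ± 0.12, Chek1 by 0.03 ± 0.20 and Mre11a by 0.06 ± 0.12. Donor DNA near Myd88 was not tested.

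**Figure D3:**
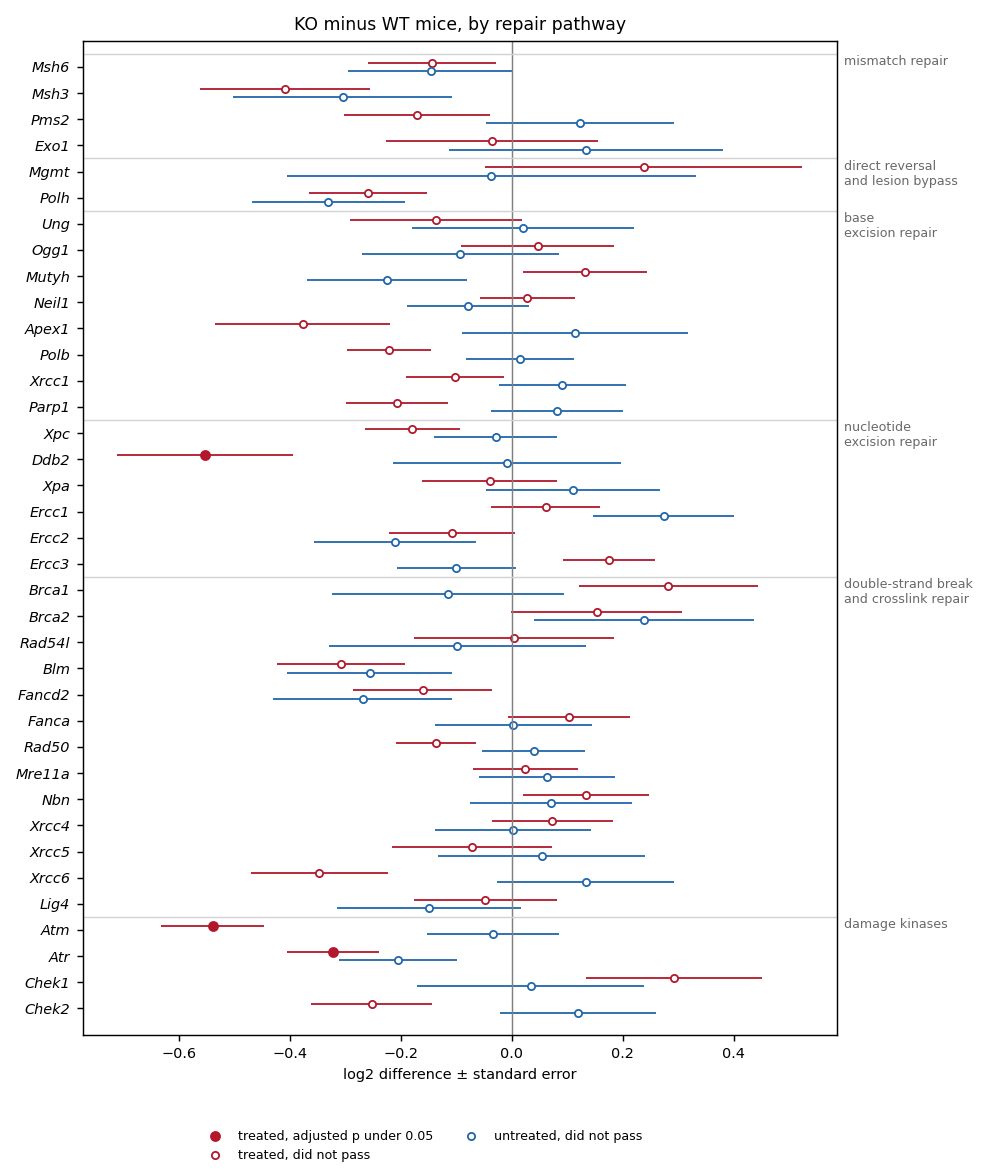
Log2 differences between KO and WT mice (x axis, ± standard error) for the 37 measured repair genes, ordered by pathway, in treated mice (red) and untreated mice (blue). Filled points passed at an adjusted p under 0.05: Ddb2, Atm and Atr in treated mice, and none in untreated mice.

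The other genes of the same pathways, 85 of them, gave a similar share. In KO mice 11 fell and 2 rose with treatment, 15.3% in all against 18.7% of all genes, with a median of -0.11. In WT mice 2 fell, 2.35% against 1.82% of all genes in either direction. They were H2ax, the histone phosphorylated around breaks (-0.60, adjusted p = 0.0363), and the lesion bypass polymerase Rev1 (-0.40, adjusted p = 0.00516). The H2ax call was lost without any 1 of 10 arrays, at adjusted p of up to 0.10.

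In other base excision repair genes Parp2, the relative of Parp1, fell by 0.45 (adjusted p = 0.000249) and Lig3, the ligase that works with Xrcc1, by 0.32 (adjusted p = 0.0245) in KO mice. The Lig3 call was lost without untreated KO repeat 1 or 4 (adjusted p of up to 0.0584). As the mean of its probe sets Lig3 changed sign, to a rise of 0.07. In other break and crosslink genes 5 of 33 fell in KO mice, with the 2 largest falls in Fancb, of the Fanconi core complex (0.62, adjusted p = 0.0362), and Trp53bp1, which protects broken ends (0.59, adjusted p = 0.00184). Fancb lost the call without any 1 of 7 arrays. In other damage signalling genes Rpa3, of the single-strand binding complex, fell by 0.54 (adjusted p = 0.00284). The lesion bypass genes went both ways: Poli, a bypass polymerase, fell by 0.68 (adjusted p = 0.00395), while Mad2l2, a subunit of another bypass polymerase, rose by 0.44 (adjusted p = 0.00166). None of the other 5 mismatch and 13 nucleotide excision repair genes passed in KO mice (limma, 0 and 1 of them under 0.05 before adjustment). Of the 5, Msh4 was at the floor on all 10 treated KO and 5 of 6 untreated KO arrays, so a change in it was not measurable.

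Between treated KO and treated WT mice 7 of these 85 genes were lower (8.24%) and 2 higher, 10.6% in all. Over all genes 12.8% passed in either direction and 6.57% as lower. Fancb was lower by 0.59 ± 0.18 (adjusted p = 0.0297), a call lost without treated WT repeat 1, 6 or 8 or treated KO repeat 8. Trp53bp1, which Atm phosphorylates, was lower by 0.53 ± 0.11 (adjusted p = 0.0025) and Poli by 0.57 ± 0.14 (adjusted p = 0.00876). Timeless, of the fork protection complex, was higher by 0.54 ± 0.16 (adjusted p = 0.0262), a call lost without treated WT repeat 10 or treated KO repeat 5 or 10 (adjusted p of up to 0.0547).

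Targets of p53, the transcription factor that Atm and Chek2 activate, did not move together. Of 21 measured, 1 rose and 1 fell with treatment in KO mice, 9.52% against 18.7% of all genes. Zmat3 rose by 0.33 (adjusted p = 0.00342) and Trp53inp1 fell by 0.85 (adjusted p = 0.00881), with a median of 0.03 over the 21. None passed in WT mice (limma, 0 of 21, against 1.82% of all genes, 5 under 0.05 before adjustment), where the median was 0.08. Between treated KO and treated WT mice Sesn1 (-0.69, adjusted p = 0.0156) and Ccng1 (-0.20, adjusted p = 0.0341) were lower, 9.52% against 12.8% of all genes. The Ccng1 call was lost without any 1 of 8 arrays.

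Mitosis genes fell in both genotypes. Of 24 mitosis genes 21 fell with treatment in KO mice (87.5%, against 10% of all genes as lower), with a median of -0.97. In WT mice 14 fell (58.3%, against 1.22% of all genes as lower), with a median of -0.75. Between treated KO and treated WT mice 4 of the 24 were lower (16.7%, against 6.57% of all genes as lower). All 24 differences lay below 0, with a median of -0.33. Ccnb2, a mitotic cyclin, fell by 1.59 and Ube2c, which marks it for destruction, by 1.37 in KO mice. Of 27 DNA replication genes 9 fell in KO mice (33.3%, against 10% of all genes as lower), with a median of -0.35. None passed in WT mice (median -0.33, all 27 below 0, 10 under 0.05 before adjustment by limma). The mean over the mitosis genes lay between 5.73 and 6.86 (median 6.14) in treated KO, between 5.66 and 7.31 (median 6.40) in treated WT, between 6.76 and 7.33 (median 7.15) in untreated KO and between 7.07 and 7.49 (median 7.22) in untreated WT mice. Fewer cells of a type and less RNA per cell cannot be told apart in RNA of whole colon.

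With the mean of the mitosis and replication genes as a covariate, which may also remove part of a treatment effect, none of the 7 falls in KO mice passed (460 of all genes did, against 3404 without it). Ddb2 was then -0.74 (adjusted p = 0.0832) and Apex1 -0.44 (adjusted p = 0.212), and Atm -0.33 (adjusted p = 0.192). The comparison of treated KO with treated WT mice kept its 3 calls with this covariate: Atm at -0.51 ± 0.09 (adjusted p = 0.000907), Ddb2 at -0.50 ± 0.16 (adjusted p = 0.0413) and Atr at -0.27 ± 0.08 (adjusted p = 0.0195). Chek1, the kinase that Atr activates, then passed as higher in treated KO mice, at 0.42 ± 0.12 (adjusted p = 0.0278). These 4 calls were 10.8% of the members, close to the 10.6% of all genes that passed with this covariate.

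**Figure D4:**
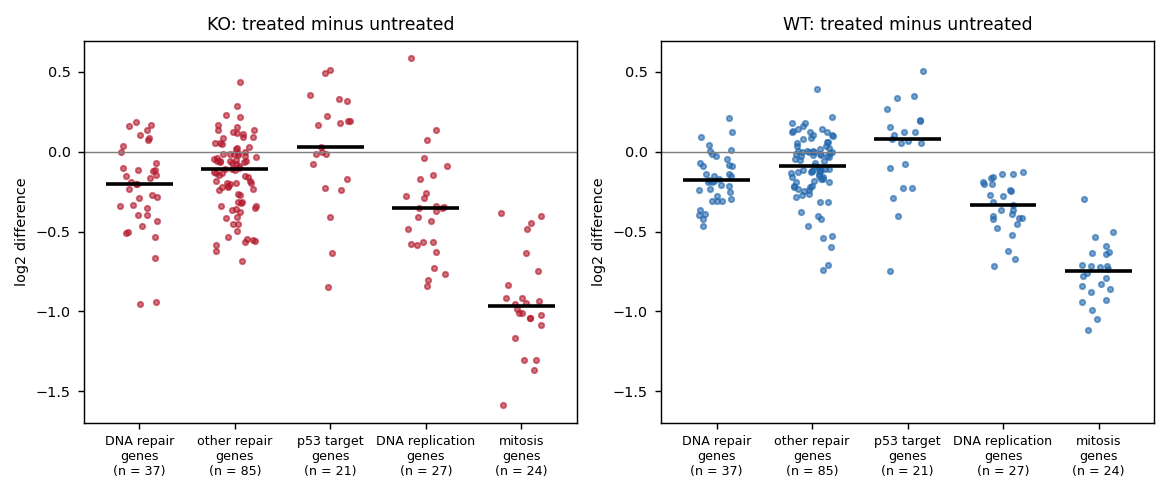
Log2 differences between treated and untreated mice (y axis) in KO mice (left) and WT mice (right), with a point for each gene and a bar for the median of its list. The repair genes lay mostly below 0, with medians of -0.20 in KO and -0.18 in WT mice, and the mitosis genes lay lowest, with medians of -0.97 and -0.75.

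The promoters of the repair genes and of the cell cycle genes shared some letters and not others. The E2F motif (TTTCCCGC or TTTGGCGC) was in 4 of 29 repair gene promoters (13.8%), which were those of Xrcc6, Chek2, Brca2 and Msh3. It was in 5 of 21 replication gene promoters (23.8%), in none of 21 mitosis gene promoters and in 1.35% of 27025 mouse promoters. The CCAAT box was in 16 repair gene promoters (55.2%), Apex1, Atm and Chek2 among them, against 85.7% for mitosis genes, 57.1% for replication genes and 34.5% of all promoters. The CHR motif of mitosis genes (TTTGAA) was in none of the 29, against 33.3% for mitosis genes and 16.3% of all promoters. NRF1 and ETS (CCGGAAG) motifs were in 4 repair gene promoters each (13.8%), against 2.32% and 7.05% of all promoters. None of these motifs holds another's letters. Median GC content was 61.6% for the repair genes and 52.0% over all promoters, and a match is only a run of letters.

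Of the 29 members with a RefSeq promoter, 13 (44.8%) had a gene on the opposite strand that started within 1000 bases, against 15.2% of all 27025 genes in the promoter table. Of these neighbours 12 were measured. Osgep starts 56 bases from Apex1, so the printed Apex1 sequence runs into it, and it fell with treatment in KO mice by 0.45 ± 0.13 (adjusted p = 0.0142). Tmem167, 59 bases from Xrcc4, rose by 0.39 ± 0.09 (adjusted p = 0.00187) while Xrcc4 had 0.16. Npat, 376 bases from Atm, had -0.23 ± 0.09 (adjusted p = 0.0832), and Desi1, 149 bases from Xrcc6, had -0.17 ± 0.08 (adjusted p = 0.134). The printed Xrcc6 sequence thus runs into Desi1 as well. None of the other 8 measured neighbours passed in KO mice.

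Tissue makeup differed between the arrays as well. Colon epithelium markers were not at the floor on any array, 7 of 14 rose with treatment in KO mice, and 4 were higher in treated KO than in treated WT mice, 13 of 14 differences lying above 0. Over all 18193 genes, 1581 rose and 1823 fell with treatment in KO mice, 18.7% in all. Between the treated genotypes 1135 of all genes were higher in KO mice and 1196 lower, 12.8% in all. Squamous epithelium markers, 13 in all, had a mean between 4.63 and 8.01 in treated KO, between 4.57 and 11.3 in treated WT, between 4.32 and 8.16 in untreated KO and between 4.36 and 6.11 in untreated WT mice. B and plasma cell markers had a mean between 5.83 and 7.29 in treated KO, between 6.28 and 7.45 in treated WT, between 6.53 and 7.64 in untreated KO and between 6.75 and 7.92 in untreated WT mice, and 3 of the 8 fell and 1 rose with treatment in KO mice. Between treated KO and treated WT mice 2 of the 8 were lower, Jchain by 1.54 and Mzb1 by 0.77, both expressed by antibody-secreting cells. The 7 calls in KO mice and the 3 between treated genotypes all held when the squamous and skeletal muscle means entered the model. The 3 also held without treated WT repeats 1 and 2, where squamous markers were highest. Those arrays cannot change a KO difference, so the 7 calls, which held too, were hardly tested by leaving them out. Of the other lists, 1 of 11 macrophage and monocyte markers and 1 of 8 neutrophil markers rose with treatment in KO mice, and none of 8 smooth muscle and 10 skeletal muscle markers passed (limma, 2 and 0 under 0.05 before adjustment). The part of the B cell and colon epithelium differences in these results was not tested.

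Within groups the repair genes varied about as much as other genes, with a median SD of 0.26 against 0.28 over all genes, from 0.16 for Rad50 to 0.65 for Mgmt. Of the members 23 had more than 1 probe set and 14 had 1, and no other member than Mgmt and Exo1 was at the floor on any array.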

How the data were processed

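RNA of the distal colon was measured on 32 arrays. The authors deposited log2 probe set signals for 45101 probe sets, and the summarising software is not given in the sources used here. Linear signals had a 2% trimmed mean between 149.7 and 150.3 on every array, and signals under 10 stood at 10 (3.32 on the log2 scale), as did 18.7% to 23.9% of the probe sets of an array. Arrays of a group correlated at r between 0.935 and 0.985.

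The log2 values were quantile normalised. Of the probe sets 34945 had 1 symbol in the platform annotation, 932 several and 9160 none, and 64 were controls. The brightest probe set with 1 symbol stood for each gene. A linear model of the 4 group means was fitted in R 4.3.3 by limma 3.58.1 (28 residual and 1.10 prior degrees of freedom), with 5 two-sided contrasts and Benjamini-Hochberg adjustment over 18193 genes. A change was called at an adjusted p under 0.05. The number of arrays limits the precision. The procedure was run on simulated arrays with noise independent between genes. Of changes planted in brighter genes, 91% to 97% were recovered at 2-fold and 98% to 100% at 4-fold. False calls were 4.48% to 6.44% of the calls. Smaller changes, such as those of the repair genes called here, were not planted.

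The members, the 16 gene lists and the tests were chosen with earlier results of these data known. Values were given for every member that passed and for Mgmt, Parp1, Xrcc1, Polb, Msh6, Atm and Brca1. Of each other list, at most 3 called genes were named in each comparison, those with the largest change in it. Alternatives covered the scaling, dim genes, probe sets, arrays in the fit, repeat number as a block, array weights, prior, covariates, threshold and each array left out in turn. Leaving out treated WT repeats 1 and 2 was chosen after seeing the data.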

Additional observations from a re-analysis of the deposited data

Results flagged for a closer look

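Of 52 groups of arrays (13 named members in 4 groups), 3 held an array far from the others of its group, and chance alone flags about 1 in 20 groups. Polb, the gap-filling polymerase, was highest at 8.51 in treated WT repeat 1, with the next array at 8.15. Mgmt was highest at 4.97 in treated WT repeat 7, with the next at 4.09 and 7 of 10 arrays of that group at the floor. Brca1 was lowest at 4.50 in untreated WT repeat 1, with the next at 5.20.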

How the results depend on the processing

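The 7 genes that fell in KO mice and the 3 that were lower in treated KO than in treated WT mice kept direction and call without any 1 of the 32 arrays, and under 14 other settings with 2 exceptions: the cell cycle covariate, which left 0 of the 7, and a threshold of 0.01, which left Atm as the 1 call between treated genotypes. Leaving out WT arrays cannot change a difference in the KO response, nor can untreated arrays change one between treated genotypes. Such runs altered only the shared spread and the adjustment. More genes passed elsewhere. Between treated genotypes the count was 10 with the values as deposited (27% of members, 13.1% of all genes), 6 without dim genes (20.7% and 22.9%), 5 with the mean of a gene's probe sets (13.5% and 9.94%), 5 with array weights (13.5% and 13.6%) and between 3 and 9 with each array left out. It was 9 without treated KO repeat 9 (24.3% and 16.6%) and 5 without treated KO repeat 1, 6 or 8 (13.5%, with 13.3% to 13.9% of all genes). In the KO treatment response it was 13 with the values as deposited (35.1% and 18.6%) and between 7 and 12 with each array left out, with 12 without treated KO repeat 9 (32.4% and 22.9%). Array weights called 2 in the WT response and 1 in the difference of responses, where leaving out arrays gave between 0 and 1. In the untreated comparison the count stayed at 0 in every setting run.

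The repeat number as a replicate block called 11 in the KO response (29.7% of members, 19.4% of all genes), the 7 among them, and the other counts were as before. Deviations of arrays with the same number correlated between -0.17 and 0.34, with 1 number over 0.1 at most in each comparison, so the numbers were not taken as pairs.

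Values near 0 changed sign in the KO response. Mgmt was -0.063 with array weights, -0.033 with the cell cycle covariate and between -0.021 and 0.33 with an array left out. Msh6 was 0.0048 with the RNA integrity covariate and 0.10 with the cell cycle covariate, and Atr was 0.10 with the latter. Brca1 was -0.14 with the mean of probe sets, -0.014 with the integrity covariate and between -0.0026 and 0.19 with an array left out. Lig3 was 0.075 with the mean of probe sets. The cause was not tested.

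Centring arrays on their medians moved the median of all genes by up to 0.07. Of the calls over all genes between treated genotypes 74.7% were then higher, 41.8% with the values as deposited and 48.7% with quantile normalisation. In the KO response these shares were 65.9%, 39.1% and 46.4%. The repair genes called were lower under each. Signals at the floor limit dim members.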
